A study of Saccharomyces cerevisiae with 6 samples.

Results

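The thioredoxin, glutaredoxin and peroxiredoxin genes of budding yeast were taken as 10 named genes: TRX1, TRX2, TRR1, TSA1, TSA2, AHP1, SRX1, GRX1, GRX2 and SOD1. A probe set was a member when the platform annotation gave it one of these symbols. Each symbol had 1 probe set, so 10 of the 5449 Saccharomyces cerevisiae genes tested were members, and no filter on low signal removed any of them. The series compared 3 samples whose cells were incubated with zymolyase, which digests the glucan of the cell wall, for 20 min at 25 °C and whose RNA was isolated with the MagExtractor kit, against 3 control samples isolated with the FastRNA Pro Red kit without that incubation. All 6 samples came from cells labelled BY4743, grown in YPD medium at 25 °C for 2 days. The medium of both groups contained 0.01% SDS, a detergent, so no sample was free of it. BY4743 is a diploid laboratory strain whose labelled genotype is MATa/α his3Δ1 leu2Δ0 met15Δ0 ura3Δ0 lys2Δ0. Enzyme and kit changed together, so their parts in any difference cannot be told apart, and fewer cells with a transcript cannot be told apart from less RNA per cell.

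These genes make the enzymes that keep protein thiols reduced and remove peroxides in the yeast cytosol. Peroxiredoxins reduce peroxides with a reactive cysteine, thioredoxins return that cysteine to its reduced form, and thioredoxin reductase recharges thioredoxin with electrons from NADPH. Glutaredoxins do related work with glutathione, sulfiredoxin rescues peroxiredoxins whose cysteine has been over-oxidised, and superoxide dismutase turns superoxide into hydrogen peroxide. Several of the genes, TRX2, TRR1 and SRX1 among them, are known targets of Yap1, a transcription factor that accumulates in the nucleus under peroxide.

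The values were MAS5 signals from single-colour Affymetrix arrays, on a linear scale. On every array all 10 genes lay above the background, taken as the 95th percentile of the probe sets for the second species on the array, which was 8.4 to 10.9 on the zymolyase arrays and 8.3 to 10.4 on the control arrays. The array also carries probe sets for genes of the same or related function in the fission yeast Schizosaccharomyces pombe (trx1, trx2, trr1, tpx1, grx1, grx2, sod1 and srx1). Those 8 had signals of 0.2 to 13.1, and 5 of them stayed at or below the background on every array, whereas the lowest signal of any of the 10 budding yeast genes was 99.5. The 4 alpha-specific marker genes were above the median gene on every array, with signals of 1485 to 7412, and the 7 a-specific ones below it, with signals of 8.0 to 134. HIS3, LEU2 and URA3 had signals of at least 371, so mating type and these genes went against the labelled a/alpha strain that carries deletions in them; where the probes lie relative to the deletions was not checked. The log2 ratio of 3′ to 5′ signal over 8 yeast control genes averaged 2.60 ± 0.35 on the zymolyase arrays and 0.85 ± 0.24 on the control arrays (SD, n = 3 each), a difference of 1.74 (SE 0.25; two-sided p = 0.1 by an exact permutation test, which cannot go lower with 3 against 3). Arrays numbered 1 stood apart from the others of their group, so the calls of the 10 genes are also given without them.

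Of the 10 genes, TRX1 and GRX2 were lower in the zymolyase samples and 8 did not pass the test. TRX1, for a cytosolic thioredoxin, was 2.17-fold lower and GRX2, for a glutaredoxin, 1.94-fold lower. By limma with Benjamini-Hochberg adjustment over all genes at a threshold of 0.05, 2 members were thus called lower, beside 20.0% of all genes, and 0 were called higher, beside 22.5% of all genes. In either direction 42.5% of all genes were called. Taking unadjusted limma p-values under 0.05 left the counts at 2 lower and 0 higher, beside 1320 lower and 1474 higher of all 5449 genes. The arrays of the groups did not overlap for 2 members, beside 52.9% of all genes, and in both the zymolyase values were the lower; no member had all its zymolyase values above the control values, as 27.2% of all genes did. The median log2 change of the 10 genes was -0.26, against 0.04 over all genes. The coding sequences of the members were shorter than most, with a median of 448.5 bases, where that of all genes was 1236, and shorter genes had lower changes on these arrays (Spearman's rho 0.34 across 5449 genes, which are not independent replicates). With the trend of signal on coding length removed, the median of the members was -0.02, with TRX1 called lower (beside 18.0% of all genes) and AHP1 higher (beside 19.5%). The part of transcript length and of the 3′ to 5′ difference in these changes was not tested.

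**Figure D1:**
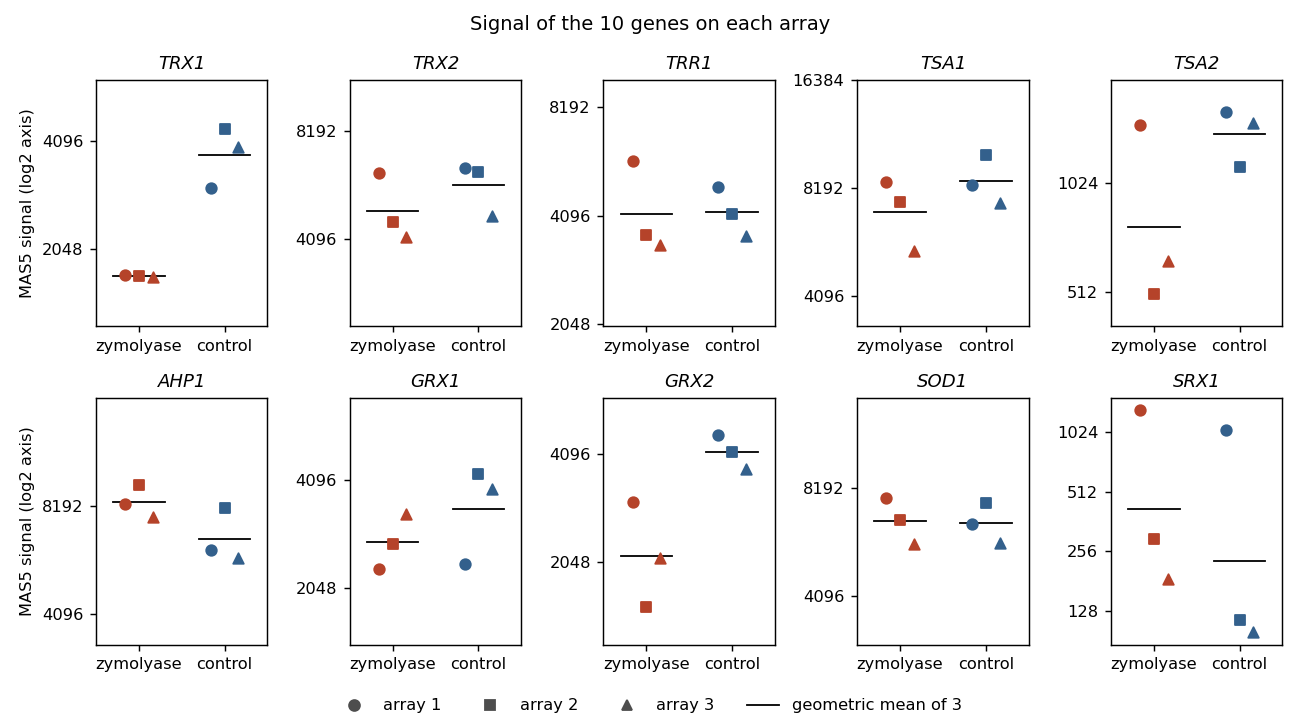
MAS5 signal of each of the 10 genes on a log2 axis, with the 3 zymolyase arrays left and the 3 control arrays right in every panel, each point being 1 array and the line the geometric mean of 3. The zymolyase and control points do not overlap for TRX1 and GRX2, and the circles for SRX1 (array 1 of each group, 1318 and 1050) stand far above the other arrays.

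In the thioredoxin arm TRX1 was called lower, and TRX2 and TRR1 were not called. TRX1 (YLR043C), one of the cytosolic thioredoxins, had signals of 1739, 1728 and 1714 on the zymolyase arrays, against 3034, 4430 and 3934 on the control arrays. All zymolyase values lay below all control values, as they did for 25.7% of all genes. The means were 1727 ± 12.7 and 3799 ± 708 (SD, n = 3 each), a log2 change of -1.12 (SE 0.16, limma adjusted p = 0.00205), and 7.49% of all genes had a lower change. Its fall held under all 16 alternatives, with adjusted p no higher than 0.0119 and changes of -1.28 to -0.95.

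TRX2 (YGR209C), for the other cytosolic thioredoxin, had signals of 6242, 4565 and 4143 on the zymolyase arrays, against 6436, 6304 and 4740 on the control arrays. The groups overlapped, and its log2 change was -0.23 (SE 0.20, limma adjusted p = 0.373). TRR1 (YDR353W), for the reductase that recharges the pair, had signals of 5813, 3613 and 3398 on the zymolyase arrays, against 4935, 4135 and 3600 on the control arrays. Array 1 was the highest in each group for both genes. The change of TRR1 was -0.01 (SE 0.23, limma adjusted p = 0.968), and its sign turned without zymolyase array 2 or 3 or control array 1, at 0.09, 0.13 and 0.10.

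Of the 3 peroxiredoxins, none passed with all 6 arrays and no replicate block, and TSA2 and AHP1 passed under some alternatives. TSA1 (YML028W), the main cytosolic peroxiredoxin, had signals of 8501, 7490 and 5494 on the zymolyase arrays, against 8368, 10126 and 7468 on the control arrays. These overlapped, with a log2 change of -0.29 (SE 0.20, limma adjusted p = 0.274). TSA2 (YDR453C), its less expressed relative, had 1491, 505 and 621 on the zymolyase arrays, against 1619, 1136 and 1510 on the control arrays. Arrays 2 and 3 of the zymolyase group lay below every control array, and zymolyase array 1 lay among the controls. The change was -0.86 (SE 0.38, limma adjusted p = 0.105), and it became -1.33 (adjusted p = 0.00230) without zymolyase array 1. Leaving out any other single array gave changes of -1.01 to -0.55, with no call (limma adjusted p of 0.123 to 0.315).

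AHP1 (YLR109W), a thiol peroxidase with a preference for organic peroxides, went the other way. Its signals were 8316, 9364 and 7650 on the zymolyase arrays, against 6168, 8071 and 5884 on the control arrays. The groups overlapped through control array 2, and each zymolyase array lay above the control array of its number. The log2 change was 0.34 (SE 0.16, limma adjusted p = 0.123), and 0.48 without control array 2 (adjusted p = 0.0393). It passed after quantile normalization (0.35, adjusted p = 0.00589), where TRX1 and GRX2 were the lower members, beside 22.8% of all genes lower and 21.2% higher. With each array centred on its median gene, which puts the median change of all genes at -0.12, it was 0.18 (adjusted p = 0.517).

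SRX1 (YKL086W), for the sulfiredoxin, varied most within the groups. It had signals of 1318, 295 and 186 on the zymolyase arrays, against 1050, 115 and 99.5 on the control arrays. Array 1 of each group was far above the other arrays, and within each number the zymolyase array was the higher, by 0.33, 1.36 and 0.90 on the log2 scale. The change was 0.86 (SE 1.003, limma adjusted p = 0.519). Without zymolyase array 1 it was 0.03 (adjusted p = 0.982), the least with any single array left out. Without control array 1 it was 1.96 (adjusted p = 0.0563), the most. With neither array numbered 1 it was 1.13 (SE 0.23, limma adjusted p = 0.000364, n = 2 each). With so few arrays the limma SE leans on the variance of all genes and does not measure the spread of SRX1 alone.

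The glutaredoxin genes differed in their calls. GRX2 (YDR513W), the more active glutaredoxin of the cell, had signals of 3020, 1535 and 2102 on the zymolyase arrays, against 4615, 4144 and 3717 on the control arrays. All zymolyase values lay below all control values, and the means were 2219 ± 749 and 4159 ± 449 (SD, n = 3 each). The log2 change was -0.96 (SE 0.24, limma adjusted p = 0.0150), and -0.70 with the length trend removed, where the call was lost (adjusted p = 0.0630). GRX1 (YCL035C), its close relative, had 2315, 2711 and 3289 on the zymolyase arrays, against 2379, 4241 and 3848 on the control arrays. Here array 1 was the lowest of each group. The change was -0.30 (SE 0.24, limma adjusted p = 0.345), and -0.56 without control array 1 (adjusted p = 0.0444). It was -0.44 to -0.14 without any other single array, with no call (limma adjusted p of 0.258 to 0.702).

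SOD1 (YJR104C), the cytosolic copper-zinc superoxide dismutase, had signals of 7672, 6703 and 5719 on the zymolyase arrays, against 6513, 7471 and 5761 on the control arrays. The ranges lay over each other, and its log2 change was 0.02 (SE 0.16, limma adjusted p = 0.921). It turned to -0.080 without zymolyase array 1, to -0.07 without control array 3, and to -0.14 with each array centred on its median gene.

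Both groups carry the numbers 1 to 3, and same-numbered arrays deviated together from their group means. With the number as a replicate block, TSA2 passed as lower (log2 -0.86, SE 0.23, adjusted p = 0.0178), and AHP1 (0.34, SE 0.08, adjusted p = 0.0105) and SRX1 (0.86, SE 0.20, adjusted p = 0.0103) as higher by limma. The counts of members were then 3 lower, beside 27.3% of all genes, and 2 higher, beside 31.2% of all genes. Without the arrays numbered 1, TRX1, TSA2, GRX1 and GRX2 were called lower, beside 28.3% of all genes, and SRX1 higher, beside 32.6%. With 10 members, 1 gene more or less moves such a share by 10 percentage points.

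**Figure D2:**
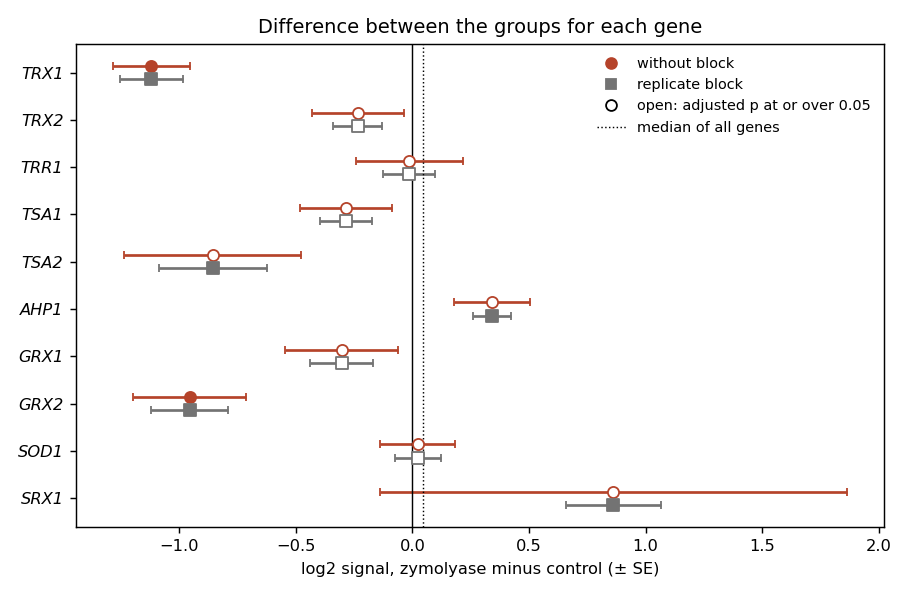
Log2 change of each gene, zymolyase minus control, with its moderated SE, without the replicate block (circles) and with it (squares); filled symbols passed at an adjusted p under 0.05, and the dotted line is the median of all genes at 0.04. TRX1 and GRX2 are filled in both fits, and TSA2, AHP1 and SRX1 only with the block.

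In the family, 3 pairs of genes are related copies, so the ratio of one copy to the other on the same array was compared between groups; it does not depend on how the array was scaled. The log2 ratio of TRX2 over TRX1 was 1.84, 1.40 and 1.27 on the zymolyase arrays, against 1.09, 0.51 and 0.27 on the control arrays. No zymolyase array overlapped a control array, and the difference was 0.89 (SE 0.30, exact permutation p = 0.1, two-sided, which is the least that this design allows, and 0.3 adjusted over 3 pairs). The ratio of TRX2 to TRX1 was thus 1.85-fold higher in the zymolyase samples, with TRX1 the copy that was called lower. The same differences within the numbers 1, 2 and 3 were 0.76, 0.89 and 1.005.

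The ratio of GRX2 over GRX1 was 0.38, -0.82 and -0.65 on the zymolyase arrays, against 0.96, -0.03 and -0.05 on the control arrays (log2). The groups overlapped through zymolyase array 1, and the difference was -0.65 (SE 0.50, exact permutation p = 0.3, and 0.3 adjusted over 3 pairs). Within the numbers 1, 2 and 3 it was -0.57, -0.79 and -0.60. The ratio of TSA2 over TSA1 averaged -3.18 ± 0.69 on the zymolyase arrays and -2.61 ± 0.47 on the control arrays (SD, n = 3 each), which also overlapped, with a difference of -0.57 (SE 0.48, exact permutation p = 0.3, and 0.3 adjusted over 3 pairs). Within the numbers it was -0.14, -0.73 and -0.84, of one sign but much smaller for number 1. Whether the probe sets of a pair also bind the other copy was not tested.

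**Figure D3:**
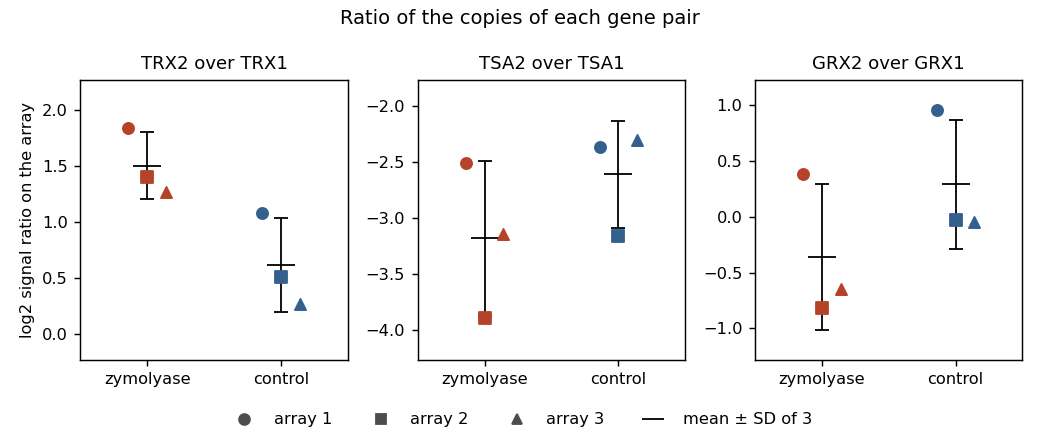
Log2 ratio of the signals of related copies on each array, zymolyase left and control right, with the mean ± SD of 3 arrays. The points of TRX2 over TRX1 do not overlap (1.27 to 1.84 on zymolyase arrays, 0.27 to 1.09 on control arrays), while those of the other pairs do.

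The remaining thiol redox and peroxide genes were counted in lists made by role. Of 38 such genes, all measured, 11 were lower, 1 was higher and 26 did not pass. Over all genes 20.0% were lower and 22.5% higher. With the replicate block 16 of the 38 were lower and 4 higher, beside 27.3% and 31.2% of all genes. The median log2 change of the 38 genes was -0.22, against 0.04 over all genes. The 4 other thioredoxin and peroxiredoxin genes all passed, 3 of them lower. PRX1, for the mitochondrial peroxiredoxin, had signals of 1705, 853 and 1323 on the zymolyase arrays, against 3488, 3285 and 3377 on the control arrays. The groups lay far apart, and PRX1 fell 2.72-fold (log2 -1.44, SE 0.24, limma adjusted p = 0.00308). TRX3, the mitochondrial thioredoxin, fell 1.68-fold (-0.75, adjusted p = 0.0444), DOT5, a nuclear thiol peroxidase, fell 1.51-fold (-0.59, adjusted p = 0.0208), and TRR2, the mitochondrial thioredoxin reductase, rose 1.63-fold (0.70, adjusted p = 0.0187).

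Of these calls only that of PRX1 held under all 16 alternatives. The adjusted p of TRX3 was 0.139 and 0.110 without zymolyase array 2 or 3, 0.0951, 0.0642 and 0.0902 without control array 1, 2 or 3, and 0.161 once the trend on length was removed. It was also 0.0582 without the intensity trend of the variance. That of DOT5 was 0.0625 without zymolyase array 2, 0.0618 and 0.0670 without control array 2 or 3, and 0.207 once the trend on length was removed. That of TRR2 was 0.0751 without zymolyase array 3 and 0.0562 without control array 2.

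Among 14 other glutaredoxin and glutathione genes, 2 fell, 0 rose and 12 did not pass, beside 20.0% of all genes lower and 22.5% higher. GRX4, a monothiol glutaredoxin of iron regulation, had signals of 347, 197 and 265 on the zymolyase arrays, against 748, 743 and 640 on the control arrays. It fell 2.70-fold (log2 -1.43, SE 0.22, limma adjusted p = 0.00241), and GRX7, a glutaredoxin of the Golgi, fell 2.05-fold (-1.03, SE 0.17, adjusted p = 0.00304). The glutathione enzymes themselves were among those that did not pass: GLR1, for glutathione reductase, changed by 0.01, and GSH1 and GSH2, for glutathione synthesis, by -0.26 and 0.14. With the replicate block GTT2, a glutathione transferase, passed as lower and GPX2, a glutathione peroxidase, as higher (0.48, limma adjusted p = 0.0263). Of 5 further enzymes of superoxide and hydrogen peroxide only CTT1, the cytosolic catalase, passed, with a fall of 1.63-fold (-0.70, adjusted p = 0.0356). The mitochondrial superoxide dismutase gene SOD2 passed as lower with the replicate block (-0.50, limma adjusted p = 0.0165). The groups of CTT1 overlapped, and its adjusted p was 0.0738 and 0.119 without zymolyase array 1 or 2, and 0.124 and 0.109 without control array 2 or 3. MXR2, the mitochondrial methionine sulfoxide reductase, fell 2.53-fold (-1.34, SE 0.20, adjusted p = 0.00233), and its cytosolic relative MXR1 changed by -0.09 (adjusted p = 0.834).

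The regulators did not move together. YBP1, whose protein binds Yap1 and serves its oxidation, had signals of 107, 86.4 and 107 on the zymolyase arrays, against 269, 257 and 275 on the control arrays. It fell 2.68-fold (log2 -1.42, SE 0.17, limma adjusted p = 0.00112). YAP1 itself had 964, 719 and 728 on the zymolyase arrays, against 671, 448 and 510 on the control arrays, without overlap. Its change was 0.57 (SE 0.20, limma adjusted p = 0.0529), with adjusted p = 0.00681 in the replicate block and 0.0147 without control array 1. Across the alternatives the change of YAP1 ranged from 0.35 to 0.74, and its limma adjusted p from 0.00154 to 0.187. SKN7, a partner of Yap1 at peroxide-induced genes, changed by -0.00 (SE 0.39, limma adjusted p = 0.998). Without the replicate block, the 7 other Yap1 targets included 0 genes that passed limma in either direction, beside 42.5% of all genes. The count was also 0 at an unadjusted p under 0.05, beside 1320 lower and 1474 higher of all 5449 genes. With the block 4 of the 7 passed, where 27.3% of all genes were lower and 31.2% higher. Lower were OYE3, an NADPH dehydrogenase (log2 -1.23, limma adjusted p = 0.00849), GTT2 (-0.67, adjusted p = 0.0154) and ATR1, a drug transporter (-0.45, adjusted p = 0.0389). YCF1 was higher. YCF1, a vacuolar transporter of glutathione conjugates, had the smallest p without the block, at 0.42 (limma adjusted p = 0.132). Its adjusted p was 0.0127 with the block and 0.0318 without control array 1. Leaving out control array 1 also brought FLR1, another drug transporter, past the test as higher (1.41, adjusted p = 0.0102), and leaving out control array 2 brought OYE3 past it as lower (-1.88, adjusted p = 0.0478). Without both arrays numbered 1, FLR1, YCF1, OYE3 and GTT2 passed, where 28.3% of all genes were lower and 32.6% higher. With the length trend removed, YCF1 took the other sign, at -0.22.

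The pentose phosphate pathway supplies the NADPH that thioredoxin reductase and glutathione reductase use. Of 6 of its genes 3 fell and 0 rose, beside 20.0% of all genes lower and 22.5% higher. SOL3, a phosphogluconolactonase, fell 2.43-fold (log2 -1.28, SE 0.14, limma adjusted p = 0.00102), TKL1, the main transketolase, fell 1.84-fold (-0.88, SE 0.15, adjusted p = 0.00294), and GND1, the main phosphogluconate dehydrogenase, fell 1.44-fold (-0.53, SE 0.14, adjusted p = 0.0170). The call of GND1 was lost without zymolyase array 2 (0.0630) or 3 (0.0676) or control array 2 (0.0548). ZWF1, the glucose phosphate dehydrogenase at the pathway's entry, changed by -0.11 (adjusted p = 0.671). PRX1, GRX4, GRX7, MXR2, SOL3 and TKL1 passed in the same direction under all 16 alternatives. YBP1 passed as lower in all those that tested it, but the setting without the dimmest genes left it out.

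**Figure D4:**
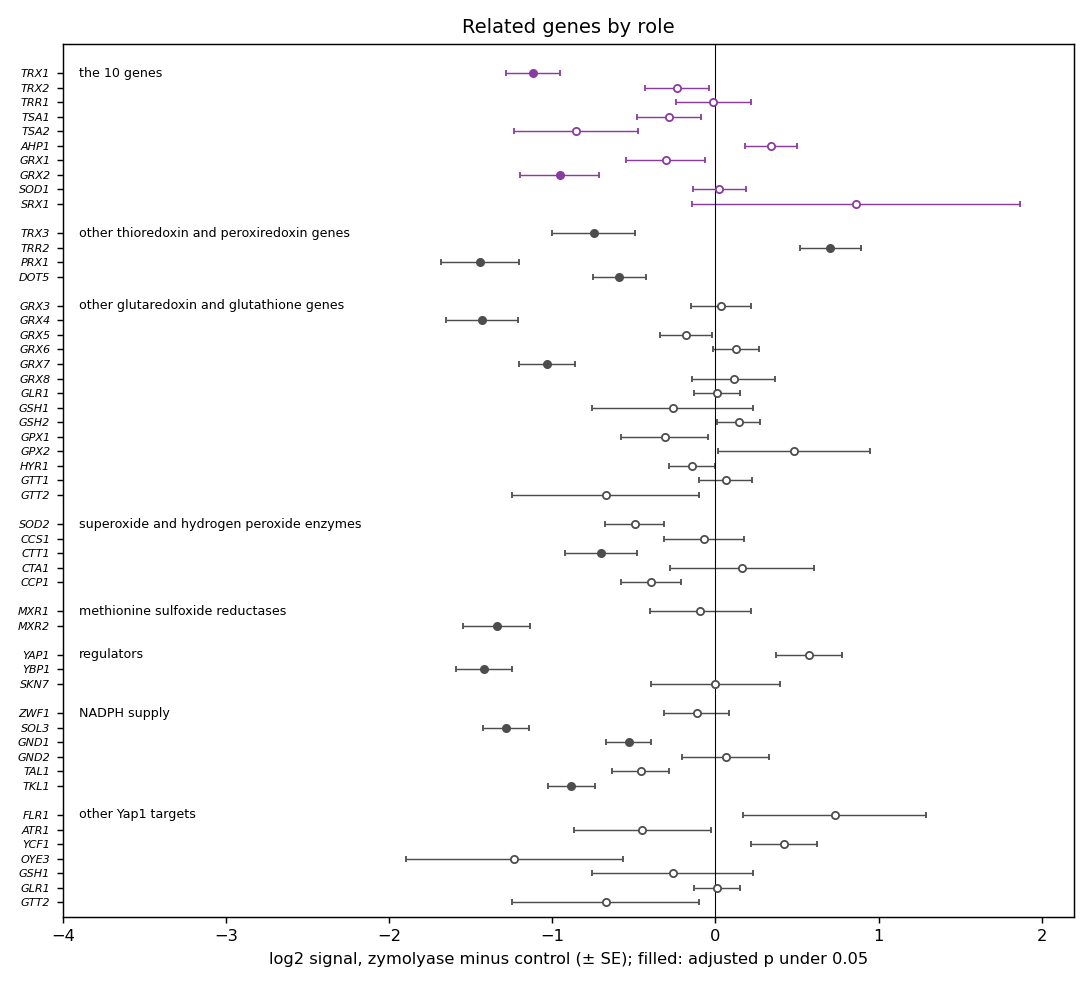
Log2 change, zymolyase minus control, with its moderated SE for the 10 genes (upper block) and for the lists of related genes, each row being 1 gene and filled points having an adjusted p under 0.05. Filled points lie left of 0 except that of TRR2 at 0.70, and GSH1, GLR1 and GTT2 appear in 2 lists.

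A second pattern ran along the array numbers and not along the groups, and was described after the values were seen, with no test. SRX1 was 2.49 higher on zymolyase array 1 than on the mean of zymolyase arrays 2 and 3, and 3.30 higher on control array 1 than on the mean of control arrays 2 and 3 (log2 scale). By the average of these 2 differences, 2.90, it ranked 2 of 5449 genes. TSA2 followed with 1.41 in the zymolyase group and 0.31 in the control group, TRR1 with 0.73 and 0.36, GRX2 with 0.75 and 0.23, and TRX2 with 0.52 and 0.24. These 5 of the 10 genes were highest on array 1 in both groups, as were 27.8% of all genes, and 8 of the 10 were highest on zymolyase array 1, as were 43.3% of all genes. GRX1 was the 1 member that was lowest on array 1 in both groups, by -0.37 in the zymolyase group and -0.76 in the control group, as were 23.0% of all genes.

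All 7 other Yap1 targets were highest on array 1 in both groups, as were 27.8% of all genes. The medians of the 7 were 0.84 in the zymolyase group and 1.38 in the control group, against 0.03 and 0.02 over all genes. Among the 7, OYE3 had differences of 1.12 in the zymolyase group and 2.34 in the control group. GTT2 had 1.39 in the zymolyase group and 1.72 in the control group, and GSH1 had 1.44 in the zymolyase group and 1.38 in the control group. The values of YAP1 were 0.41 (zymolyase) and 0.49 (control), and those of SKN7 were 0.78 (zymolyase) and 1.26 (control). OYE3 and GTT2 were named after their values were seen. Of all 38 related genes, which include the 7 Yap1 targets, 24 were highest on array 1 in both groups, or 63.2%, beside 27.8% of all genes. The log2 ratio of 3′ to 5′ signal was lower on the arrays numbered 1, at 2.19 against 2.85 and 2.75 in the zymolyase group, and at 0.58 against 0.99 and 0.99 in the control group, and its part in the pattern was not tested.

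**Figure D5:**
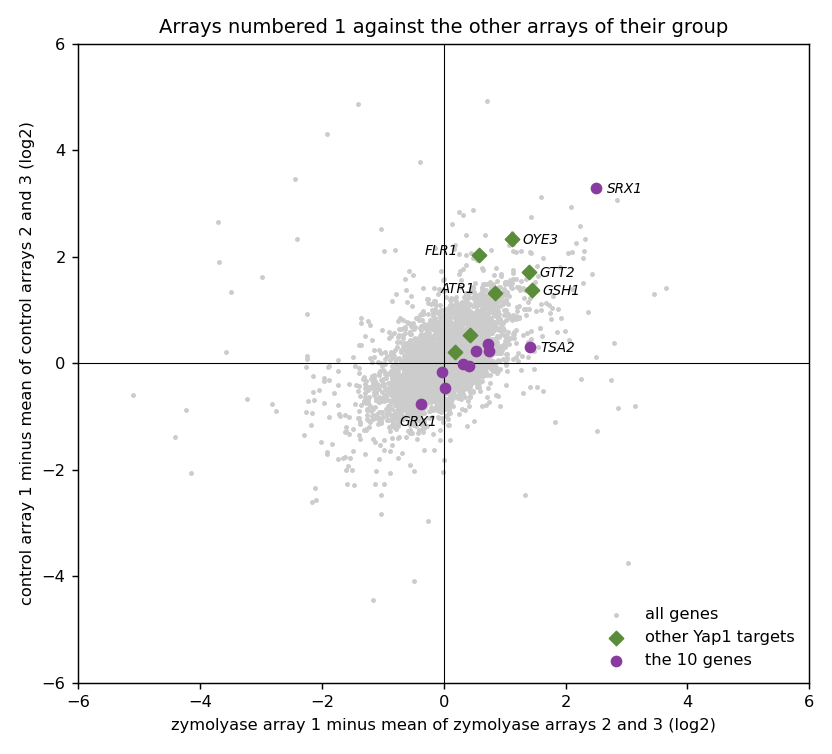
Log2 difference between array 1 and the mean of arrays 2 and 3, in the zymolyase group (horizontal axis) and the control group (vertical axis), for all 5449 genes (grey), the 10 genes (circles) and the other Yap1 targets (diamonds), with the genes away from the centre named. SRX1 stands at 2.49 and 3.30, all 7 diamonds lie right of and above 0, and GRX1 lies on the opposite side.

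The gene with the most similar profile to each member was sought by Euclidean distance between log2 signals centred on their own mean over the 6 arrays. AHP1 was nearest to RPS26B (distance 0.09), GRX2 to BMH2 (0.12), SOD1 to AFB1 (0.13), GRX1 to TPO1 and TSA1 to RPL23B (0.17 each). TRX1 was nearest to SEC28, TRX2 to URA2 and TRR1 to RPA190 (0.20 each), and TSA2 to HPF1 (0.34). SRX1 had no close match, its nearest gene being YLR108C at a distance of 1.14. In the RefSeq gene table YLR108C is the neighbour of AHP1, whose own signal was not high on the arrays numbered 1. Within the family the nearest genes were TRX2 and TSA1, at 0.34, whereas SRX1 lay 3.03 from TRR1, the member nearest to it.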

How the data were processed

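The submitters' processing notes name MAS5, and the deposited column holds its linear signal intensity for each probe set. Version, settings and detection calls are not given in the sources used here. From the values, the mean after trimming 2% at each end was 500.2 to 500.3 on every array, so the authors had scaled the arrays. About 4 µg of total RNA per sample became biotinylated cRNA, per the labels' protocols. Of 10928 probe sets, 7244 had 1 gene symbol, 1 had several and 3683 had none. Through gene identifiers, 5498 matched S. cerevisiae genes in the RefSeq table of assembly R64. The gene lengths given there were used as coding lengths. Of these 97.0% were multiples of 3, so some are not exact coding lengths. The brightest probe set stood for each of the 47 genes with several.

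Log2 signals (zeros set to 0.1) were fitted with limma 3.58.1 in R 4.3.3 (lmFit, eBayes with an intensity trend) and adjusted by Benjamini-Hochberg over 5449 genes. The fit was also run on simulated data with independent noise on each array and few changed genes. That run does not cover deviations shared by same-numbered arrays or a large share of changed genes. Changes are zymolyase minus control. Nothing in the labels says whether replicates were grown separately, so p-values reflect variation among these samples alone, possibly technical, and the number of arrays limits the precision. Deviations from the group means correlated at 0.49, 0.20 and 0.41 for numbers 1, 2 and 3, all above the limit of 0.1. Numbers were therefore also treated as pairs, in the replicate block, which is 1 of the 16 alternatives. Pairing in this way rests on the data and not on the labels. The main fit and the permutation tests did not use the pairs. The members, lists and tests were chosen with earlier results of these data known. All members are named. From each list up to 4 called genes were named by size of change, or the one with the smallest p, and YAP1 and SKN7 in any case. GLR1, GSH1, GSH2, GPX2, SOD2, MXR1, ZWF1, OYE3, GTT2, ATR1 and FLR1 were named beside them after their values were seen.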

Additional observations from a re-analysis of the deposited data

How the results depend on the processing

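Of 16 alternatives, none turned the calls of TRX1 or GRX2 to the other direction, and GRX2 lost its call in 1 of them. Called members numbered 2 to 3 lower and 0 to 1 higher when any single array was left out. They numbered 1 higher after quantile normalization, 2 higher with the replicate block, 1 lower and 1 higher with the length trend removed, and 4 lower and 1 higher without the arrays numbered 1. Related genes called higher numbered 2 without the dimmest genes, 4 with the replicate block and 5 without the arrays numbered 1, and 0 to 5 without any single array, with 7 to 13 lower. Calls over all genes were 740 to 1175 lower and 851 to 1350 higher without any single array. Median centring gave 951 higher and 1463 lower, against 1224 and 1092, and put the median gene at -0.12 in place of 0.04. The changes of 3 members that passed nowhere took the other sign: TRR1 at 0.14 after quantile normalization, at 0.19 with the length trend removed and at -0.26 to 0.13 without single arrays; TSA1 at 0.025 with the length trend removed; and SOD1 at -0.14 after median centring, -0.084 without the arrays numbered 1 and -0.080 to 0.13 without single arrays. The differences of the copies kept their sign and moved by less than 1 SD with 16 added to every signal, with the length trend removed and without single arrays. Without single arrays they were 0.71 to 1.12 for TRX2 over TRX1, -0.91 to -0.22 for TSA2 over TSA1 and -1.02 to -0.32 for GRX2 over GRX1. The replicate block cannot change these differences. Removing the length trend cannot change that of TSA2 over TSA1, whose coding lengths are equal. It can hardly move that of TRX2 over TRX1, with lengths of 315 and 312 bases. Adding 16 can also hardly move the latter, as the signals of both genes were at least 1714. The replicate block changed the calls of TSA2, AHP1 and SRX1 and of no other member. The cause of these shifts was not tested. With groups of 3, no single-gene permutation test can pass 0.05.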
